A study of Mus musculus with 12 samples.

Results

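The genes of G protein, RGS and cAMP signaling were followed in the RNA of purified mouse CNS myelin at 4 ages. Members were chosen by gene symbol, with a rule that uses no measured value but was set with earlier results of these data known. They comprise the α, β and γ subunits of heterotrimeric G proteins (Gna, Gnb and Gng genes), the regulators of G protein signaling (Rgs) and the adenylyl cyclases (Adcy). The cyclic nucleotide phosphodiesterases (Pde) and the catalytic and regulatory subunits of protein kinase A (Prkac, Prkar) are also members. The rule found 89 members among the 21937 genes of the deposited table: 16 Gα, 5 Gβ, 10 Gγ, 20 RGS, 10 adenylyl cyclase, 22 phosphodiesterase and 6 protein kinase A genes. Myelin, the stack of membranes that oligodendrocytes wrap around axons, was enriched from brains of wild-type mice as a light-weight membrane fraction on a sucrose gradient and sequenced as bulk RNA, with 3 libraries from each of postnatal days 18 (P18) and 75 (P75), 6 months and 24 months. The mice were male c57Bl6/N, the 6 month samples came from 3 individual brains, and no age carried a transgene or treatment in the labels. For the other ages nothing states that the 3 libraries came from separate mice, so p-values measure the spread between these libraries, which may be technical there.

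In this pathway a receptor in the membrane loads a Gα subunit with GTP, which frees it from its Gβγ partner. Gαs proteins activate adenylyl cyclases, which make cAMP from ATP, Gαi proteins inhibit several of them, and Gαq proteins activate phospholipase C beta. RGS proteins speed up GTP hydrolysis by Gα and so end the signal, phosphodiesterases break down cAMP or cGMP, and protein kinase A is held inactive by regulatory subunits until these bind cAMP. In oligodendrocytes cAMP is known to promote differentiation, and several G protein-coupled receptors of these cells regulate when myelin is made.

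Values are normalized read counts, which are reads per gene divided by a size factor of the library, given per library or as mean ± SD (n = 3). They were not corrected for transcript length unless a value per kb of merged exons is named. The libraries held 20299052 to 27214385 reads on genes. Mbp, the transcript of myelin basic protein, took 9.47% to 20.8% of them at P18 and 4.76% to 8.48% at the later ages. The summed level of 12 oligodendrocyte markers was 1290778 to 6220163 per library, against 186254 to 245388 for 11 neuronal, 99807 to 120796 for 10 astrocytic, 6892 to 22511 for 12 microglial and 705 to 1021 for 10 endothelial and mural markers, and none of these genes was at 0 in all libraries. Mbp alone, at 1067179 to 5580858 per library, made up most of the oligodendrocyte sum. In bulk RNA, fewer cells or fragments of a type and less RNA per cell cannot be told apart.

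Promoter sequences are shown for a few members because the cAMP response element (CRE) lies in promoters. The CRE is the site through which cAMP acts on transcription via CREB. RefSeq promoters on GRCm38.p6, from 250 bases before to 50 after a start, matched 68 of the 89 members with 118 promoters. The full CRE, TGACGTCA, which reads the same on both strands, was in 2 of the 118 (1.7%), both of Prkar1a, whose windows overlap and share the site, and in 1.8% of all 32851 promoters. The GC box GGGCGG on either strand was in 45.8% of member promoters and 35.7% of all, CCAAT on either strand in 32.2% and 37.4%, and TATAAA on either strand in 10.2% and 13.6%. The 4 motifs do not contain one another, and a match is a description only. The promoter of Prkar1a with the CRE is on the plus strand at chr11:109650699-109650998, and its capitals mark the CRE, which starts at position -49 from the start of transcription. Prkar1a encodes the most abundant regulatory subunit of protein kinase A in these libraries. Gng12 (plus strand, chr6:66896147-66896446) fell most of all tested members between P18 and 24 months, Gng5 (plus strand, chr3:146499586-146499885) fell most from P75 to 6 months, and Adcy2 (minus strand, chr13:68999492-68999791) is a cyclase that rose. The CRE letters were in none of these 3 windows, and their capitals mark GC boxes on either strand.
Prkar1a: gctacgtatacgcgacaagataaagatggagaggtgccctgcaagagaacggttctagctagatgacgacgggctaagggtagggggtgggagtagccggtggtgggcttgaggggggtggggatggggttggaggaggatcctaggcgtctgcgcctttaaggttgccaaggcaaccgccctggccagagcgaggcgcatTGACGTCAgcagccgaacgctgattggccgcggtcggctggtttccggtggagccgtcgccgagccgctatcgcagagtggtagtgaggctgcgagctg
Gng12: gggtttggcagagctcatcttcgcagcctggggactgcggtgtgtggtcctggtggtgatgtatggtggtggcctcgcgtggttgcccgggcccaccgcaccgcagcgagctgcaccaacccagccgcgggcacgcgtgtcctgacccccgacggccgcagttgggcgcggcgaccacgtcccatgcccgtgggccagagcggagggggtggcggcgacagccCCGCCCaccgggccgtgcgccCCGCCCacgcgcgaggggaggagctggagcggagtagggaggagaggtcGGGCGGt
Gng5: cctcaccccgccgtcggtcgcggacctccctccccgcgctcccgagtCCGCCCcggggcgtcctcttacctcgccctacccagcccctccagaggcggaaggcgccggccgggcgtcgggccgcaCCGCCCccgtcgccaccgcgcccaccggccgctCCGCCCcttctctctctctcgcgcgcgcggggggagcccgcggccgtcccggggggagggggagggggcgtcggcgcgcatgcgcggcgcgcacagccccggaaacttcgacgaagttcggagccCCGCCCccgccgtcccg
Adcy2: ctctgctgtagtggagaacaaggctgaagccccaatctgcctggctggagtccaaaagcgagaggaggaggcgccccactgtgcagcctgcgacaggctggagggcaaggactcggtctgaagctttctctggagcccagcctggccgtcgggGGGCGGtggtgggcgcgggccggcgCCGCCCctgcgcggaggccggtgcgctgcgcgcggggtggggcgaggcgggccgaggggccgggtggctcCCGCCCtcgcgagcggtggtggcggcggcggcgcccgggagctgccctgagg

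Most members were readily detected. A mean normalized read count over 100 at every age was found for 66 of the 89 members, 4 (Adcy3, Adcy7, Adcy9 and Gng8) passed 100 at some ages, and 19 at none. Among the 19 were genes of light and taste sensing: the transducin and gustducin α subunits Gnat1, Gnat2 and Gnat3, the β subunit Gnb3 and the photoreceptor phosphodiesterase genes Pde6a, Pde6b and Pde6c, with age means of at most 5.38. Gnat3 had 0 reads in all 12 libraries, and a count of 0 allows up to 3 reads per library, for counting error only. The other 12 were Adcy4, Adcy10, Gna14, Gna15, Pde3a, Pde4c, Pde11a, Rgs1, Rgs5, Rgs13, Rgs18 and Rgs22, whose age means ran from 0.947 (Rgs18) to 75.8 (Rgs5). Per kb of merged exons, the highest levels over all libraries were those of Gnas (4053), Prkar1a (3865), Gnb1 (3697), Gng13 (3141) and Gng3 (3103). The highest RGS gene per kb was Rgs4 (2035), the highest phosphodiesterase with a length Pde2a (1063) and the highest cyclase Adcy1 (695).

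To ask how these genes change as myelin matures and ages, each age was compared with the next, and P18 with 24 months, using limma on log2(normalized read count + 1) with Benjamini-Hochberg adjustment over all 14634 genes with a mean of at least 10. A gene was called at a false discovery rate of 0.1, and fold changes on this scale are slightly understated for low genes. Of the members 75 could be tested, and 14 with a mean below 10 could not. The comparison of P18 with 24 months shares its libraries with the others and is not independent of them. Members named for the largest rises and falls were taken only where the libraries of the compared ages did not overlap. For them the lack of overlap in that comparison follows from the choice.

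From P18 to P75, 35 of the 75 tested members (46.7%) fell, against 22.9% of all genes tested, and 8 (10.7%) rose, against 25.9%. The median log2 change was -0.18 for the members and 0.02 for all genes. When each library was rescaled to the same total, the median of all genes moved to 0.14 and that of the members to -0.06, and the calls became 18 lower and 10 higher, so that higher calls made up 35.7% instead of 18.6% of the calls. From P75 to 6 months the order was the opposite, with 33 members (44.0%) higher and 19 (25.3%) lower, against 31.2% and 29.4% of all genes, and medians of 0.18 and 0.01. From 6 to 24 months 27 members (36.0%) fell, against 12.7% of all genes, and 8 (10.7%) rose, against 16.6%, with medians of -0.18 and 0.03. Without replicate 1 of 6 months the 8 became 5 and the 27 became 19. Leaving out replicate 1 of 24 months gave 5 higher and 18 lower, and replicate 2 of 24 months 7 and 19. At a false discovery rate of 0.05 there were 6 higher and 20 lower. Between P18 and 24 months 40 members (53.3%) were lower and 14 (18.7%) higher, against 34.3% and 34.7% of all genes, with medians of -0.26 and -0.01. No test of the members as a set was made.

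**Figure D1:**
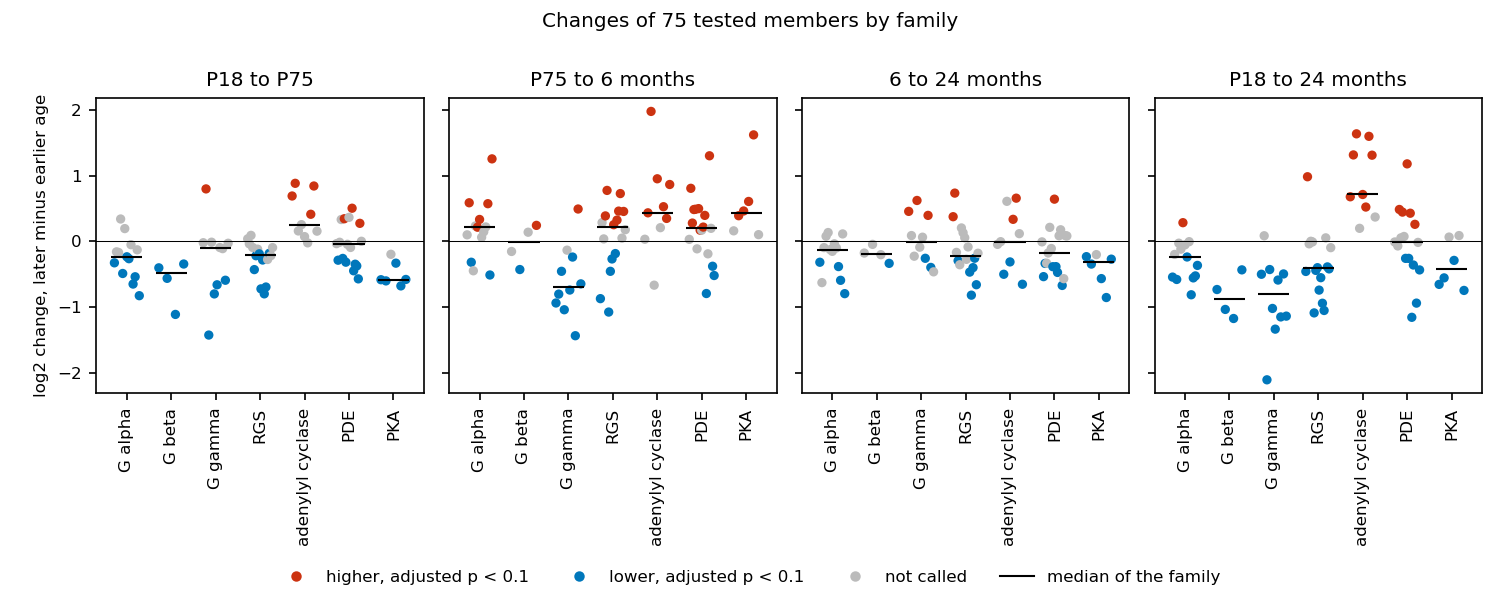
Log2 change of each of the 75 tested members, later minus earlier age, in 4 panels of 1 comparison each, by family. Each point is a gene, coloured by its call at an adjusted p under 0.1, and bars are family medians. Gβ and Gγ points lie mostly below 0 from P18 to 24 months (13 of 14 called lower) and cyclase points above 0 (7 of 9 called higher).

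The families moved apart. Between P18 and 24 months 4 of 4 tested Gβ, 9 of 10 Gγ, 10 of 16 RGS, 7 of 13 Gα and 4 of 6 protein kinase A genes were lower, while 7 of 9 cyclases were higher and none lower. Of all tested genes 34.7% were higher and 34.3% lower in this comparison. Phosphodiesterases, with 5 higher and 6 lower of 17, lay near these shares. Their counts include Pde6d, which is no enzyme. The family medians were -0.88 for Gβ, -0.80 for Gγ, -0.41 for RGS, -0.24 for Gα, -0.42 for protein kinase A, -0.02 for phosphodiesterases and 0.71 for cyclases, and they kept their sign with libraries rescaled to the same total or with quantile normalization, except for the phosphodiesterases, at 0.06 with the same total. A change of more than 2-fold was called for 2 members in the first step, 7 in the step to 6 months, 0 in the last step and 15 over the whole span from P18 to 24 months. Of the 15, 10 were lower and 5 higher, and 4 of the 5 were cyclases. Calls of more than 2-fold were not counted over all tested genes, so these counts have no background to be read against.

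Of the 13 tested α subunits 7 fell and none rose from P18 to P75, against 22.9% and 25.9% of all tested genes. From P75 to 6 months 5 rose and 2 fell, against 31.2% and 29.4%. From 6 to 24 months 4 fell and none rose, against 12.7% and 16.6%. With libraries rescaled to the same total, 3 α subunits fell and 1 rose in the first step. Gnas, which encodes Gαs, stood first in level per kb. Its libraries had 52345, 50239 and 65240 at P18, 47848, 58382 and 47075 at P75, 34423, 36766 and 35894 at 6 months, and 39074, 37588 and 39218 at 24 months. The P18 and P75 libraries were all above those of 6 and 24 months. The log2 change was -0.51 (SE 0.14, adjusted p = 0.0061) from P75 to 6 months and -0.53 (adjusted p = 0.0039) from P18 to 24 months, and neither of the other comparisons passed. The locus (chromosome 2, 174109821 to 174172245, plus strand, NCBIM37) is overlapped by the antisense gene Nespas. The strand setting of the counting is not given, so how reads of the overlap were assigned is not known. Gnal, which encodes the Gαs-like protein of olfactory and striatal neurons, passed in no comparison, with age means within 0.15 on the log2 scale.

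Of the inhibitory α subunits, Gnai1 had the highest level per kb (1820) and was the only α subunit called higher at 24 months than at P18. It had 4967 ± 553 at P18 and 6030 ± 195 at 24 months, a log2 change of 0.29 (adjusted p = 0.014) that was lost once a trend with GC content was removed. Gnai2 and Gnai3, its close relatives, were among the 6 members with the narrowest range of age means (0.33 and 0.26 on the log2 scale). Gnaz, a Gαi relative found mainly in neurons, swung most. Its libraries had 353, 382 and 405 at P18, 233, 219 and 191 at P75, 574, 475 and 490 at 6 months, and 253, 303 and 333 at 24 months. Each step separated the libraries without overlap, with log2 changes of -0.83 (SE 0.12, adjusted p = 6.6e-05), 1.26 (adjusted p = 8.2e-07) and -0.80 (adjusted p = 0.00081). Its locus is overlapped by Rtdr1.

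Gnaq, which encodes the Gαq that activates phospholipase C beta, followed the same course as Gnaz with smaller steps. It started at 2367 ± 199 and went to 1628 ± 82.6 at P75, 2425 ± 158 at 6 months and 1613 ± 174 by 24 months, with log2 changes of -0.54, 0.57 and -0.59 (adjusted p = 0.00032, 0.00011 and 0.0012). Gna11, the other widely expressed Gαq gene and the highest of its class per kb (551), was at 2705 ± 138 at P18 and 1857 ± 122 at 24 months (log2 -0.54, adjusted p = 2.2e-05). The annotation places 3 other genes across the Gnaq locus, so its reads are uncertain to that extent. Gna12 is described below with the members that varied within an age.

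All β subunits that could be tested fell. Gnb1, the most abundant, had 15883, 15214 and 14783 at P18, 11278, 11744 and 11699 at P75, 10219, 10445 and 10562 at 6 months, and 9232, 9447 and 8942 at 24 months. The order of the age means was downward without overlap between neighbouring ages, but only the step from P18 to P75 passed (log2 -0.40, SE 0.08, adjusted p = 0.0013); the net change to 24 months was -0.73 (adjusted p = 1.3e-06). Gnb2 fell from 9436 ± 496 to 4608 ± 299 between P18 and 24 months (log2 -1.04, SE 0.09, adjusted p = 5.8e-08), and the steps to P75 and to 6 months both passed. Epo overlaps its locus.

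Gnb4 fell in 1 step. Its libraries had 843, 877 and 688 at P18, against 363, 367 and 377 at P75, 419, 388 and 414 at 6 months, and 357, 347 and 356 at 24 months. Each P18 library was well above all later ones, with a log2 change of -1.11 to P75 (SE 0.10, adjusted p = 7.3e-07) and no called step after that. Gnb5, which encodes the atypical β subunit that pairs with R7 RGS proteins rather than with Gγ, fell, rose and fell, from 2987 ± 313 to 2345 ± 39.9, 2779 ± 109 and 2204 ± 33.6 (log2 -0.34, 0.24 and -0.33, adjusted p = 0.0033, 0.02 and 0.012). The first 2 of these calls were lost with libraries rescaled to the same total. Gnb3, the β subunit of cones and taste cells, was at age means of 2.70 to 5.10 and could not be tested.

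The γ subunits gave the largest falls. Gng12 had 4681, 4907 and 3648 at P18, 1660, 1574 and 1654 at P75, 1234, 1253 and 1083 at 6 months, and 973, 1075 and 1002 at 24 months. The libraries of the 4 ages did not overlap. Its log2 change was -1.43 (SE 0.10, adjusted p = 1.4e-07) to P75, -0.46 (adjusted p = 0.0015) from there to 6 months, and -2.11 (adjusted p = 2.7e-10) from P18 to 24 months, the largest of any tested member in any of the comparisons. Gng2 fell in the first step as well, from 5572 ± 505 to 3194 ± 77.03 (log2 -0.80, adjusted p = 2.6e-06), and lay at 2741 ± 87.3 at 24 months (log2 from P18 -1.02). Gng3, a γ subunit best known from neurons, fell from 8765 ± 1149 at P18 to 5548 ± 741 at P75 and 3318 ± 371 at 6 months (log2 -0.66 and -0.74, adjusted p = 0.00028 and 6e-05) and was 3455 ± 104 at 24 months. Its locus is overlapped by Bscl2, and that of Gng12 by 4930597O21Rik and Gm15644. Overlaps are not named for every member, and Gnal, Rgs10, Rgs20, Pde7b, Pde8a and Pde10a are among the others that have them.

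A second group of γ subunits had no call from P18 to P75 and fell by 6 months. Gng5, which is expressed in many tissues, had 2227, 2027 and 1482 at P18, 1645, 1714 and 1885 at P75, 546, 714 and 689 at 6 months, and 871, 787 and 893 at 24 months. The 6 month libraries were below all others, and those of 24 months below all of P18 and P75. The log2 change was -1.44 (SE 0.13, adjusted p = 6.1e-07) from P75 to 6 months and 0.40 (adjusted p = 0.047) from 6 to 24 months, and the rise was not called without 6 month replicate 1, 24 month replicate 1 or 24 month replicate 3, nor with the GC trend removed. Gng13, known from taste cells, retina and olfactory neurons and the highest γ subunit here per kb, went from 2746, 2771 and 3457 at P75 to 1180, 1552 and 1652 at 6 months and 2638, 2246 and 1867 at 24 months, without overlap between these 3 ages (log2 -1.04 and 0.62, adjusted p = 1.9e-05 and 0.0082). Gng10 had the same course, 1816 ± 170, 949 ± 108 and 1300 ± 84.9 (log2 -0.94 and 0.46, adjusted p = 1.1e-05 and 0.016). Dnase2b overlaps Gng5, Chtf18 overlaps Gng13 and Gm20503 overlaps Gng10. Gng8 was low, at 122 ± 43.5 at P18 and 52.2 ± 2.56 at 24 months (log2 -1.14, adjusted p = 0.00017).

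**Figure D2:**
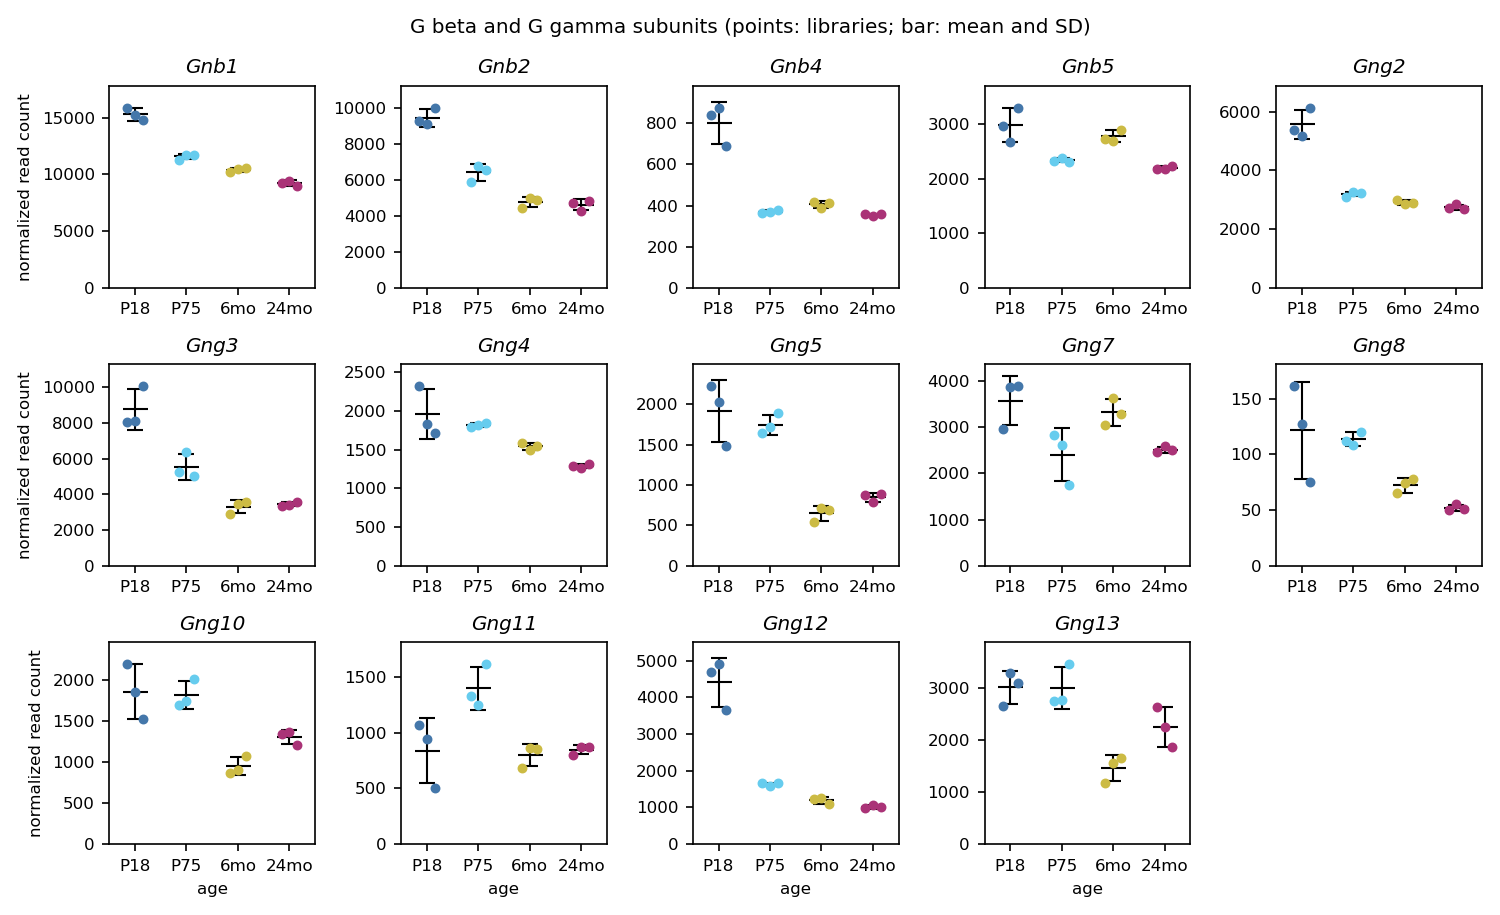
Normalized read count (linear axes from 0) of the 4 tested Gβ and the 10 Gγ genes at the 4 ages. Points are libraries, and bars are the mean and SD of 3. Gng12, Gng2 and Gnb4 drop between P18 and P75, and Gng5, Gng10 and Gng13 between P75 and 6 months.

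Gng11 and Gng7 went against their family in single steps. Gng11 was the only γ subunit that rose to P75, with 1066, 946 and 506 at P18 and 1331, 1250 and 1618 at P75 (log2 0.80, SE 0.20, adjusted p = 0.004), and it returned to 802 ± 99.0 at 6 months (log2 -0.80, adjusted p = 0.0027). P18 replicate 3 was far below the other P18 libraries, and without it the net log2 change to 24 months went from 0.09 to -0.24. Gng7, the γ subunit of striatal Golf signaling, was the only γ subunit called higher at 6 months than at P75, at 3319 ± 289 against 2403 ± 569 (log2 0.49, adjusted p = 0.0097), and it was named after its values were seen.

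Several of these γ subunit transcripts are short, and length moved with the values. Among all genes with merged exons of less than 2000 bases, 2615 in number, the median log2 change was -0.38 from P75 to 6 months, 0.21 from 6 to 24 months and -0.25 from P18 to 24 months, while for the 5463 genes over 4500 bases it was 0.13, -0.05 and 0.08. The 7 short members, Gng3, Gng8, Gng10, Gng11, Gng13, Rgs7 and Rgs10, had medians of -0.80, 0.09 and -0.46. In the main fit 31.2% of all tested genes rose and 29.4% fell from P75 to 6 months. Between P18 and 24 months 34.7% were higher and 34.3% lower. These shares were not counted for the fit without the length trend. With the trend of each library with length removed, an alternative chosen after seeing the data, the γ family had 1 member higher and 7 lower from P75 to 6 months instead of 1 and 8, and 1 higher and 8 lower between P18 and 24 months instead of 0 and 9. Its median from P75 to 6 months went from -0.69 to -0.33, and the falls of Gng8 (-0.65 to -0.06) and Gng11 (-0.80 to -0.19) in that step and of Gng13 between P18 and 24 months (-0.43 to -0.11) were no longer called, nor was the rise of Gng10 from 6 to 24 months. The part of length in these changes was not tested.

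Of the 16 tested RGS genes 8 fell and none rose from P18 to P75, against 22.9% and 25.9% of all tested genes. With libraries rescaled to the same total 3 fell and none rose. From P75 to 6 months 7 rose and 5 fell, against 31.2% and 29.4% of all tested genes. From 6 to 24 months 2 rose and 6 fell, against 16.6% and 12.7%. The 2 RGS genes with the highest levels per kb, Rgs4 and Rgs7, were both lower at 24 months than at P18. Rgs4, which acts on Gαi and Gαq and is known for its high level in cortical neurons, had 8797, 8465 and 9593 at P18, 5351, 5328 and 4769 at P75, 6346, 6494 and 6479 at 6 months, and 4136, 4793 and 5095 at 24 months. Every P18 library was above all others, and every 6 month library above those of P75 and 24 months. The log2 changes were -0.80 (SE 0.09, adjusted p = 9.9e-06), 0.32 (adjusted p = 0.008) and -0.47 (adjusted p = 0.0042). Rgs8, another small R4 protein, had 2623 ± 192, 2262 ± 219, 3106 ± 362 and 1963 ± 159 at the 4 ages, and its rise to 6 months (log2 0.46, adjusted p = 0.0015) and its fall to 24 months (log2 -0.66, adjusted p = 0.001) both passed. The summed level of 8 cortical neuron markers had medians of 38810, 27774, 34810 and 30710 from P18 to 24 months. Taken singly, 5 of the 8 fell and none rose from P18 to P75 (median log2 -0.39). From P75 to 6 months 3 rose and 3 fell (median 0.007), and from 6 to 24 months 1 fell and none rose (median -0.14). The part of cortical neuron RNA in the Rgs4 values was not tested.

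All 3 members of the RZ class, which act mainly on Gαz and Gαi, were lower at 24 months than at P18. Rgs17 had 5781, 5384 and 5941 at P18, 4310, 4965 and 5492 at P75, 2353, 2146 and 2486 at 6 months, and 2638, 2867 and 2545 at 24 months. The libraries of the 2 older ages were all below those of the 2 younger ones, with a log2 change of -1.08 (SE 0.10, adjusted p = 4.7e-07) from P75 to 6 months and -1.09 (adjusted p = 7e-08) from P18 to 24 months. Rgs20 fell earlier, from 693 ± 113 to 418 ± 42.9 between P18 and P75 (log2 -0.72, adjusted p = 0.00015), and was 412 ± 35.0 at 24 months. Gnaz, the main target of this class, took the different course given above.

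Rgs10, known from microglia and neurons, fell from 1694 ± 96.0 at P75 to 929 ± 110 at 6 months (log2 -0.87, SE 0.09, adjusted p = 2e-06) and rose to 1200 ± 31.5 at 24 months (log2 0.38, adjusted p = 0.012). The summed level of 12 microglial markers was 9975 to 10893 per library at P75, 11192 to 12840 at 6 months and 17712 to 22511 at 24 months. Rgs11, an R7 protein that pairs with Gβ5, was the only 1 of the 16 tested RGS genes called higher at 24 months than at P18. Its libraries had 158, 160 and 204 at P18, 197, 149 and 163 at P75, 168, 202 and 257 at 6 months, and 371, 351 and 310 at 24 months. The 24 month libraries were above all others, with a log2 change of 0.74 (SE 0.16, adjusted p = 0.006) from 6 to 24 months and 0.98 (adjusted p = 4.4e-05) from P18. Rgs7, the R7 gene with the highest level per kb (1266), was at 2328 ± 264 at P18 and 1772 ± 32.0 at 24 months (log2 -0.39, adjusted p = 0.00068). Rgs22 (1.17 per kb) was near the limit of detection.

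**Figure D3:**
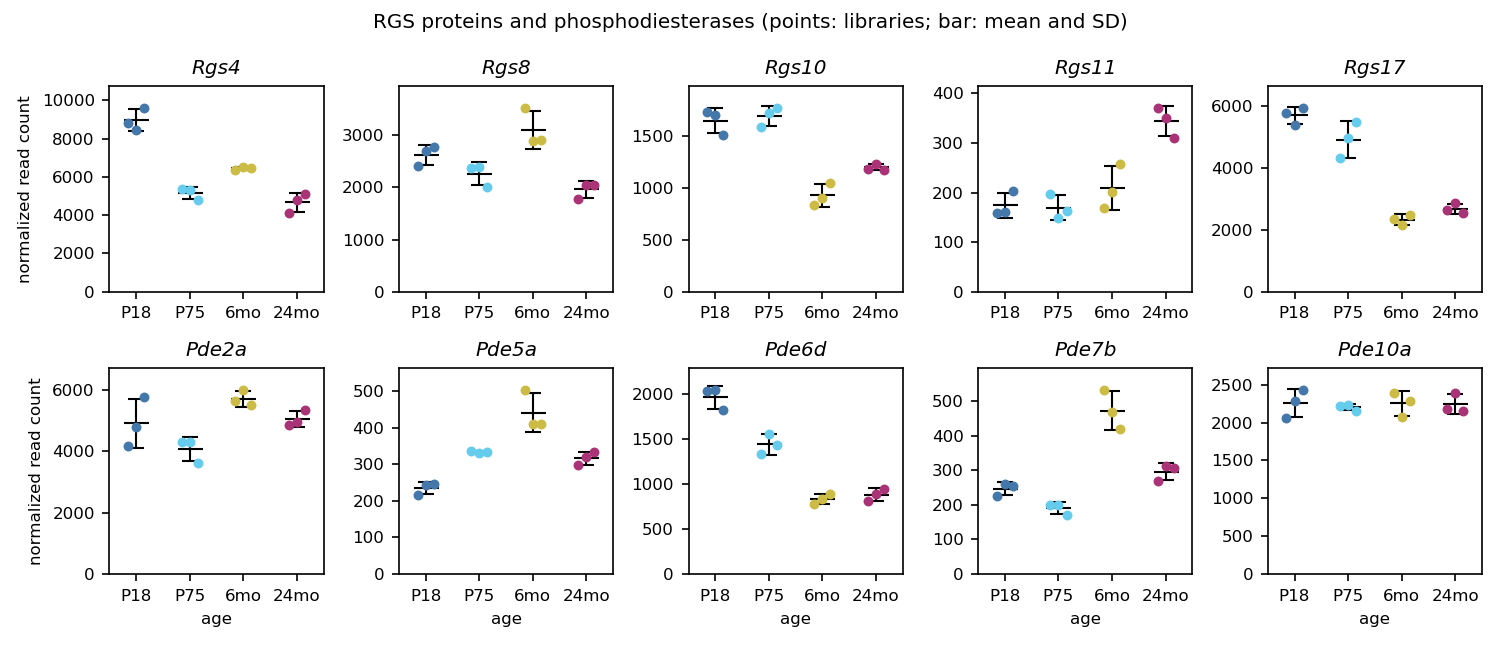
Normalized read count (linear axes from 0) of 5 RGS and 5 phosphodiesterase genes at the 4 ages. Points are libraries, and bars are the mean and SD of 3. Rgs17 and Pde6d are lower at 6 and 24 months than at P18 and P75, Pde7b is highest at 6 months, and Pde10a is level.

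Of the 9 tested adenylyl cyclases, 4 rose and none fell from P18 to P75, against 25.9% and 22.9% of all tested genes. From P75 to 6 months 6 rose and none fell, against 31.2% and 29.4%. From 6 to 24 months 2 rose and 3 fell, against 16.6% and 12.7%. In that last step the family median was near 0 and changed sign with quantile normalization. Adcy2, a cyclase that Gβγ stimulates, had 933, 1079 and 1053 at P18, 1870, 1857 and 1921 at P75, 2684, 2451 and 2509 at 6 months, and 2348, 2575 and 2707 at 24 months. The libraries of P18, P75 and the 2 later ages did not overlap, and the log2 changes were 0.88 (SE 0.08, adjusted p = 1.4e-06) and 0.44 (adjusted p = 0.00038), for a net 1.32 (adjusted p = 1.9e-09). Adcy8, which calcium and calmodulin activate, had nearly the same course at a lower level, with 366 ± 12.9, 657 ± 31.5, 837 ± 30.2 and 912 ± 91.3 (net log2 1.31, SE 0.09, adjusted p = 4.1e-09). Adcy1, the other calmodulin-activated neuronal cyclase and the most abundant, rose in the first step alone, from 4997, 5598 and 7400 to 9806, 9656 and 9204 (log2 0.69, SE 0.12, adjusted p = 0.00027), and lay at 9485 ± 673 at 24 months.

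Other cyclases rose at 6 months. Adcy3, known from olfactory neurons and primary cilia, had 57.0, 73.4 and 80.4 at P18, 94.2, 80.7 and 61.9 at P75, 370, 273 and 293 at 6 months, and 209, 201 and 248 at 24 months. Every library of the 2 older ages was above every younger one. The log2 change was 1.98 (SE 0.17, adjusted p = 4e-07) from P75 to 6 months, the largest rise of any member, and the fall to 24 months (log2 -0.50, adjusted p = 0.054) was not called without 6 month replicate 1, 24 month replicate 1 or 24 month replicate 2. The locus is overlapped by Cenpo. Adcy5, the main cyclase of the striatum, rose from 1272 ± 115 to 2466 ± 244 in the same step (log2 0.95, SE 0.11, adjusted p = 3.8e-06) and Adcy9 from 89.2 ± 6.04 to 167 ± 42.9 (log2 0.87, adjusted p = 0.0013). Both were called lower again at 24 months, at 1985 ± 178 and 105 ± 17.8, but not without 6 month replicate 1 or 24 month replicate 1, and for Adcy5 also not without 24 month replicate 2.

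Adcy7, a cyclase known from blood cells and microglia, rose at every step. Its libraries had 59.4, 74.6 and 80.4 at P18, 95.2, 92.7 and 96.2 at P75, 143, 136 and 132 at 6 months, and 226, 198 and 228 at 24 months. The libraries of the 4 ages did not overlap, and the log2 changes were 0.41, 0.53 and 0.66 (SE 0.13, adjusted p = 0.021, 0.0033 and 0.0043), for a net 1.60 (adjusted p = 3.5e-08). The first step was not called without P18 replicate 1. Of 12 microglial markers 9 rose and none fell from P18 to P75, 6 rose and 2 fell from P75 to 6 months and 7 rose and none fell from 6 to 24 months, and 11 were higher at 24 months than at P18 with a median log2 change of 1.38. Of all tested genes 25.9%, 31.2% and 16.6% rose in these steps, and 22.9%, 29.4% and 12.7% fell. At 24 months 34.7% were higher than at P18 and 34.3% lower. The part of the microglial markers in the values of Adcy7 was not tested. Adcy6 was called higher at 24 months than at 6 months and at P18, Adcy4 passed in no comparison, and Adcy10, the soluble cyclase, could not be tested.

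Protein kinase A genes fell, rose and fell again. From P18 to P75 5 of the 6 fell and none rose, against 22.9% and 25.9% of all tested genes. From P75 to 6 months 4 rose and none fell, against 31.2% and 29.4%. From 6 to 24 months 5 fell and none rose, against 12.7% and 16.6%. The family medians were -0.58, 0.43 and -0.31, with the same signs after rescaling to the same total (-0.46, 0.42 and -0.35) and after quantile normalization. Prkar2a, a type II regulatory subunit, had the widest swing, with 220, 270 and 241 at P18, 184, 155 and 122 at P75, 505, 483 and 420 at 6 months, and 233, 257 and 288 at 24 months. The 6 month libraries were above all others and those of P75 below. Its log2 changes were -0.68 (SE 0.14, adjusted p = 0.0013), 1.62 (adjusted p = 4.1e-07) and -0.85 (adjusted p = 0.0016).

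The abundant subunits took smaller steps. Prkar1a, the main type I regulatory subunit, had 17245 ± 434, 15049 ± 143, 20751 ± 677 and 18051 ± 575 at the 4 ages, and only the rise to 6 months passed (log2 0.46, SE 0.09, adjusted p = 0.00057). Prkar1b, the type I subunit of neurons, had 9871 ± 1201, 7911 ± 1511, 11919 ± 674 and 8056 ± 602. Its rise to 6 months (log2 0.61, adjusted p = 0.00089) and fall to 24 months (log2 -0.57, adjusted p = 0.0081) passed, while its first fall (log2 -0.33, adjusted p = 0.049) was not called without P18 replicate 3 or P75 replicate 3. Prkar2b, the type II subunit of brain and fat, fell from 1907 ± 59.7 to 1282 ± 148 by P75 (log2 -0.58, adjusted p = 0.00011) and was 1137 ± 60.8 at 24 months. Its last step (log2 -0.27, adjusted p = 0.046) was not called without 6 month replicate 1, 6 month replicate 3 or 24 month replicate 1.

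Both catalytic subunits ended below their P18 level. Prkacb had 12204, 11144 and 12490 at P18, 7903, 7736 and 7963 at P75, 10673, 10149 and 10130 at 6 months, and 7866, 8566 and 7953 at 24 months, with log2 changes of -0.60, 0.39 and -0.35 (SE 0.09, adjusted p = 5.4e-05, 0.0012 and 0.012). The ages fell into high (P18 and 6 months) and low (P75 and 24 months) libraries without overlap. Prkaca had 5593 ± 423 at P18 and 3746 ± 478 at P75 (log2 -0.58, adjusted p = 0.00016), 4166 ± 127 at 6 months and 3547 ± 38.7 at 24 months. Its last step (log2 -0.23, adjusted p = 0.092) was not called when any 1 of the 6 libraries was left out, and a pseudogene, Prkaca-ps1, is annotated, with which reads could be shared.

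**Figure D4:**
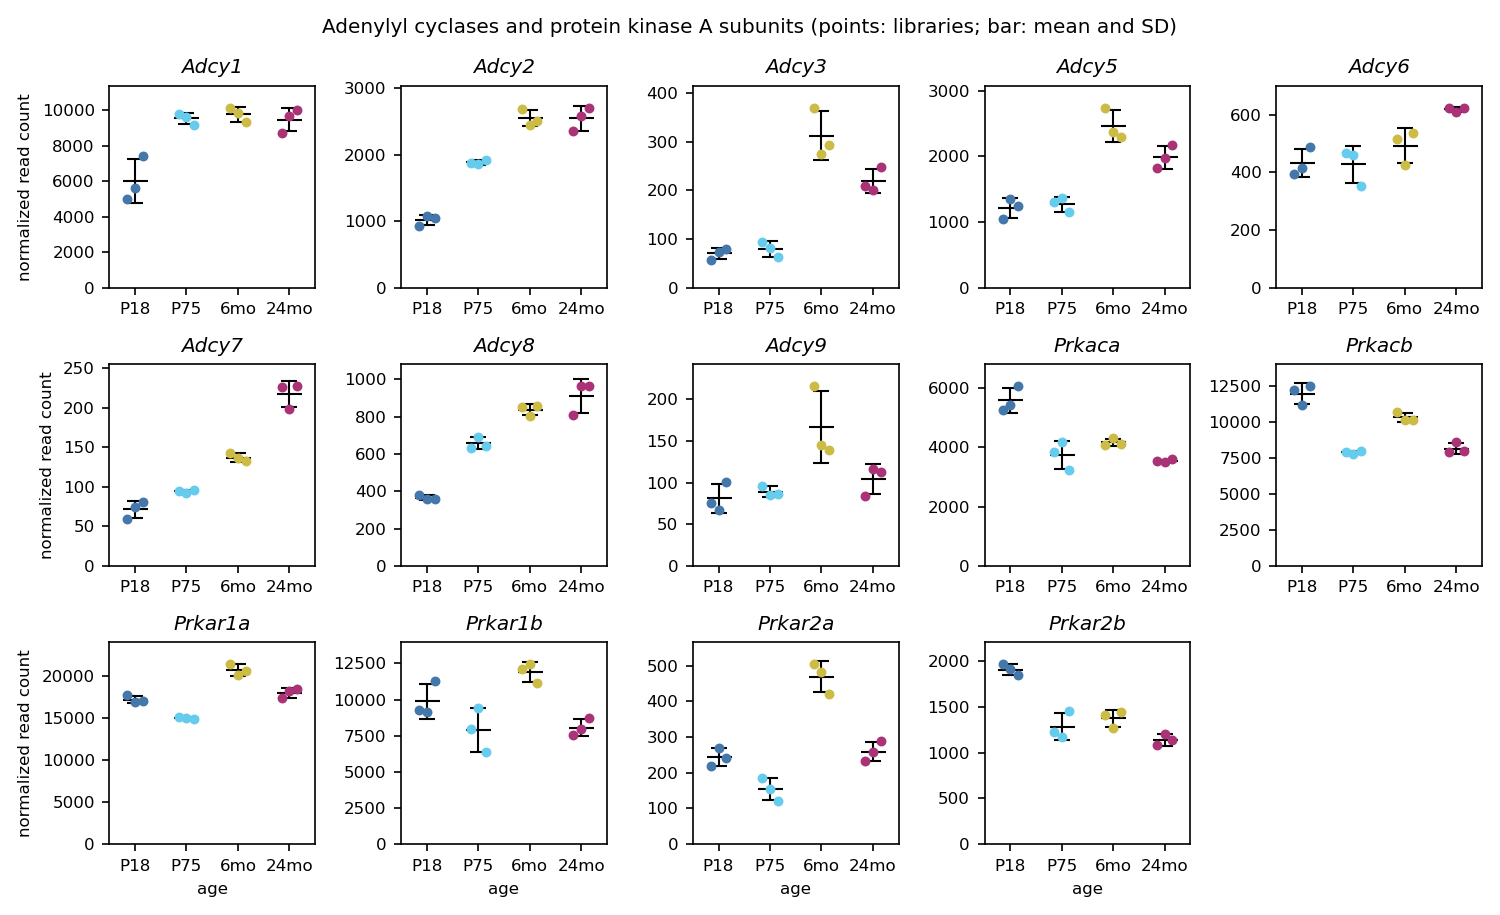
Normalized read count (linear axes from 0) of 8 adenylyl cyclases and the 6 protein kinase A subunits at the 4 ages. Points are libraries, and bars are the mean and SD of 3. Adcy2, Adcy7 and Adcy8 climb with age, Adcy3 and Adcy5 step up at 6 months, and Prkar2a is lowest at P75 and highest at 6 months.

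Neuronal markers were counted beside the kinase. Of all tested genes 25.9% rose and 22.9% fell from P18 to P75, and 31.2% and 29.4% from P75 to 6 months. From 6 to 24 months 16.6% rose and 12.7% fell. Of 11 neuronal markers 6 fell and 1 rose from P18 to P75, 6 rose and 4 fell from P75 to 6 months, and 3 fell and none rose from 6 to 24 months, with median log2 changes of -0.34, 0.39 and -0.16. Their summed level took another course, with ranges of 197659 to 234831, 213094 to 245388, 198591 to 206281 and 186254 to 197993 per library at the 4 ages, and the part of neuronal RNA in the values of Gnaz, Gnaq, Gnb5, Rgs4 and the protein kinase A genes was not tested. Of 12 oligodendrocyte markers 9 fell and none rose from P18 to P75 (median log2 -1.12). From P75 to 6 months 3 rose and none fell (median 0.19), and from 6 to 24 months 2 fell and none rose (median -0.23). The part of oligodendrocyte RNA in the values of the protein kinase A genes was not tested either.

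Phosphodiesterases had no common course. Pde6d, a prenyl-binding protein named after the phosphodiesterase of rods and no enzyme itself, had the highest level per kb of its class (588) and fell from 1967 ± 128 at P18 to 1444 ± 115 at P75 and 832 ± 54.9 at 6 months (log2 -0.45 and -0.79, SE 0.09, adjusted p = 0.001 and 3.8e-06). At 24 months it was 884 ± 68.6, a net log2 change of -1.16 (adjusted p = 1.9e-08). Pde7b, a cAMP phosphodiesterase known from the striatum, had 226, 261 and 253 at P18, 200, 199 and 171 at P75, 531, 467 and 419 at 6 months, and 268, 313 and 307 at 24 months. Its 6 month libraries were above all others. It fell by 0.37 on the log2 scale, rose by 1.30 (SE 0.12, adjusted p = 4.4e-07) and fell by 0.67 (adjusted p = 0.0019). The first fall was not called with libraries rescaled to the same total.

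Pde5a, which hydrolyses cGMP, rose from 235 ± 16.4 to 334 ± 3.06 and 441 ± 52.7 at 6 months and fell to 317 ± 17.6 (log2 0.51, 0.40 and -0.47, adjusted p = 0.0011, 0.0042 and 0.0066). Pde3b, known from insulin signaling, rose from 246 ± 16.7 at P18 to 314 ± 29.0 at P75 (log2 0.35, adjusted p = 0.024) and had no call in the later steps. Pde2a, a cGMP-stimulated enzyme, was the most abundant phosphodiesterase per kb and rose from 4079 ± 400.8 to 5709 ± 251.1 between P75 and 6 months (log2 0.49, adjusted p = 0.0014). By class, 4 of 8 cAMP-specific and 4 of 6 tested dual-specific enzymes rose in that step, against 1 and 0 that fell. The 3 tested genes grouped as cGMP phosphodiesterases include Pde6d, which is no enzyme. Of them 1 rose (Pde5a) and 2 fell (Pde6d and Pde9a). Of all tested genes 31.2% rose and 29.4% fell in that step. With the length trend removed, 5 of the 16 phosphodiesterases with a length rose and 5 fell in that step, instead of 9 and 3 of 17. From P18 to P75 the family had 3 higher and 7 lower members, and with libraries rescaled to the same total 4 higher and 1 lower. Of all tested genes 25.9% rose and 22.9% fell from P18 to P75.

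Pde10a, the phosphodiesterase of striatal projection neurons, was the most level of all members above 100. Its libraries had 2063, 2287 and 2424 at P18, 2223, 2227 and 2153 at P75, 2394, 2077 and 2289 at 6 months, and 2181, 2394 and 2150 at 24 months, and the age means lay within 0.03 on the log2 scale. All 4 ages overlapped. Rgs9 and Rgs12 had ranges of 0.18 and 0.17, and Rgs9, like Gnal and Pde10a, is known from the striatum. The 11 striatal projection neuron markers found had summed levels of 11801 to 16700 per library at P18 and 23855 to 26429 at 24 months, with 8 higher and 2 lower. Of all tested genes 34.7% were higher and 34.3% lower at 24 months than at P18, and 31.2% rose and 29.4% fell from P75 to 6 months. From P75 to 6 months, the step in which Adcy5, Pde7b and Gng7 rose, 7 of the 11 markers rose and 1 fell, with a median log2 change of 0.52. The part of striatal RNA in those rises, and the difference in course between the markers and Pde10a, Rgs9 and Gnal, was not tested. With the length trend removed, Pde10a was called lower from P18 to P75 (log2 -0.20) and from P18 to 24 months (log2 -0.21), and Rgs9, Gnal and Rgs12 were called lower from P18 to 24 months.

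A few members varied widely between libraries of 1 age. Of the 69 members with a mean over 100, the median SD within ages was 0.11 on the log2 scale. It was 0.38 for Gna12, 0.38 for Pde8a, 0.32 for Pde1c and 0.27 for Gng11, and these were chosen for description after their values were seen. Pde8a, which encodes a high-affinity cAMP phosphodiesterase, had 1252, 1932 and 774 at P18, 1121, 817 and 625 at P75, 874, 1268 and 780 at 6 months, and 721, 651 and 566 at 24 months. Its libraries had nearly the order of Mbp, which had 3686428, 5580858 and 2134344 at P18, 1598645, 1130485 and 1067179 at P75, 1114065, 2048136 and 1185829 at 6 months, and 1793465, 1476129 and 1213612 at 24 months.

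Within the ages there are 12 pairs of libraries, and Pde8a was higher in the library with more Mbp in 11 of them. As many were found for 1.66% of the 14633 other genes. For Pde1c, which encodes a calmodulin-activated enzyme, it was 10 of 12 pairs (4.45% of genes), for Gna12 8 (20.4%) and for Gng11 7 (35.0%). Gna12 had 1102, 1480 and 565 at P18, where replicate 3 was lowest, and 804, 854 and 890 at 24 months, where the order went against Mbp. Gna12 and Pde8a had few calls. Gna12 rose from P75 to 6 months (log2 0.59, SE 0.27, adjusted p = 0.074), and Pde8a was lower at P75 than at P18 (log2 -0.57, SE 0.26, adjusted p = 0.094) and at 24 months than at P18 (log2 -0.94, adjusted p = 0.0052). The first was not called without P75 replicate 2, P75 replicate 3, 6 month replicate 1 or 6 month replicate 2, and the second not without P18 replicate 1, P18 replicate 2, P75 replicate 2 or P75 replicate 3. Without P18 replicate 3, Gna12 was called lower at P75 (log2 -0.55) and at 24 months (log2 -0.59) than at P18. The part of the myelin content of a library in these values was not tested.

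**Figure D5:**
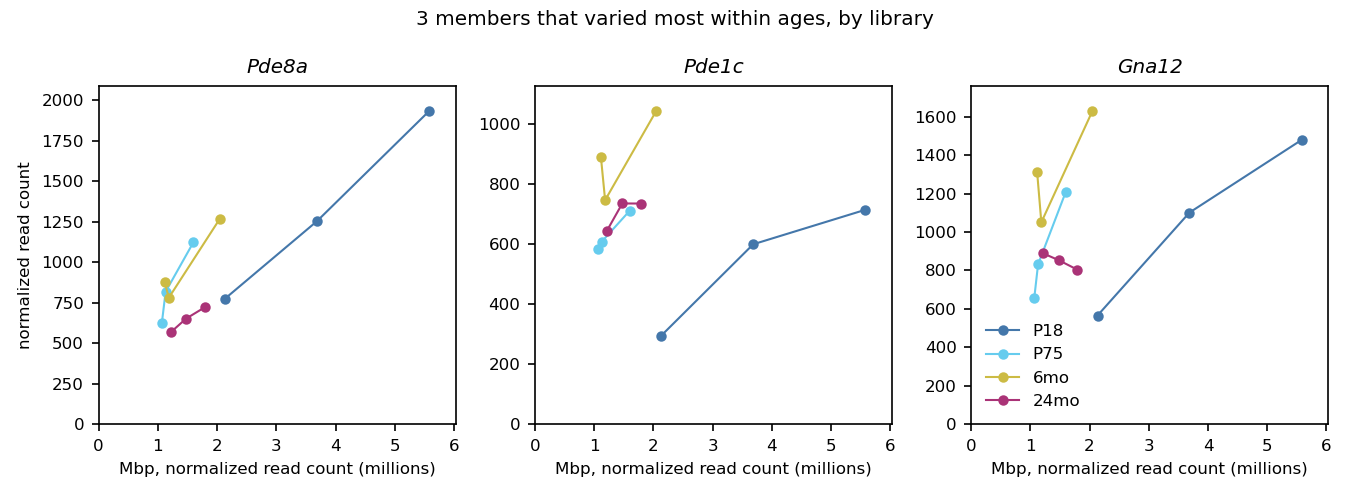
Normalized read count of Pde8a, Pde1c and Gna12 (linear axes from 0) against that of Mbp, by library, with the 3 libraries of an age joined in the order of Mbp. Pde8a is higher with more Mbp in 11 of 12 pairs of libraries of the same age, and Gna12 in 8.

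Genes around the pathway were given by lists, to be read against 34.7% of all tested genes higher and 34.3% lower between P18 and 24 months. Of 7 receptor kinases and arrestins, which switch receptors off, 5 were lower and none higher at 24 months than at P18. Of 10 tested accessory proteins 5 were lower and 1 higher, and all 3 inhibitors of protein kinase A (Pkia, Pkib and Pkig) were lower. Of 11 anchoring proteins of protein kinase A 5 were higher and 4 lower. Of 7 genes for cGMP synthesis and cGMP-dependent kinases 6 were higher and none lower, and of 6 G protein-coupled receptors known from oligodendrocytes 5 were higher and none lower. Of 4 phospholipase C beta genes 2 were higher and 1 lower, and of 8 cAMP exchange factors and CREB proteins 3 were higher and 2 lower.

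The lists' largest changes were those of Plcb4 and Rapgef4. Plcb4, a target of Gαq, rose from 173 to 926 in the age means between P75 and 6 months (log2 2.41, SE 0.17, adjusted p = 6.3e-08) and fell to 385 at 24 months (log2 -1.25, adjusted p = 0.00045). Rapgef4, which encodes the cAMP-activated exchange factor Epac2, rose from 5184 to 20471 in the same step (log2 1.997, SE 0.15, adjusted p = 9.1e-08) and lay at 16042 at 24 months. The summed level of its list was 9485 to 11755 per library at P75 and 23527 to 28533 at 6 months, and of the other 7 genes 1 rose and 3 fell in that step.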

How the data were processed

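RNA of myelin from 4 ages, 3 libraries each, was analysed. Per the labels and the study's methods, the authors aligned reads to mm9 (NCBIM37) with TopHat, counted reads per gene with HTSeq 0.5.4p1 and used SAMtools 0.1.19. The processing notes name TopHat2 2.0.8. The strand setting of the counting is not given in the sources used here. The deposited signal values are read counts per gene divided by a size factor of each library, neither logged nor scaled by length. They came out as whole reads, within 0.1 read, once multiplied by the size of 1 step per library.

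Members were taken by symbol. Members, gene lists and named genes were chosen with earlier results of these data known. Genes with a mean of at least 10 (14634) were tested with limma 3.58.1 (R 4.3.3; trend and empirical Bayes) on log2(value + 1), in 1 fit over 12 libraries with age alone, with Benjamini-Hochberg adjustment over all genes and a false discovery rate of 0.1. Named with values were up to 6 called members with the largest rise and 6 with the largest fall per comparison (mean over 100 at 1 of the ages, libraries not overlapping), the highest per kb in each class, Gnas, all Gβ and protein kinase A genes, the 6 most level members, members at 0, and of the pathway lists the 2 genes that changed most. Lengths were merged exons of the NCBIM37 annotation, for 88 members. The fit was tested on simulated data first. Python 3.11.15, pandas 2.3.3, numpy 2.4.6, scipy 1.17.1 and matplotlib 3.10.9 were used for the rest.

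Depth was 20299052 to 27214385 reads on genes per library. Alternatives were pseudocounts of 0.5 and 10, no filter, a mean of at least 100, only the libraries of the 2 ages, a replicate block, rescaling to the same total, quantile normalization, edgeR 4.0.16 and DESeq2 1.42.0 on the recovered reads, calling at 0.05, and leaving out each library. Removing the trend with length or GC content (lowess, span 0.3, per library) was added after seeing the data. The replicate numbers in the labels were checked for pairing by the correlation of deviations from the age means. It was 0.161, 0.101 and 0.187 for P75 and 6 months, over 0.1 for every number, although the mice of 2 ages differ, and between -0.213 and 0.029 for the other comparisons.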

Additional observations from a re-analysis of the deposited data

How the results depend on the processing

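Of 3796 values of the 50 named members that were tested, under all alternatives, 3581 kept their direction and side of the threshold, 75 gained a call, 139 lost it and 1 reversed: Gng11 between P18 and 24 months, at -0.24 without P18 replicate 3 and at most 0.29 with another library left out. Rescaling to the same total gave 18 members lower from P18 to P75, and moved the members' median log2 change to -0.056 in that step, -0.22 from 6 to 24 months and -0.18 from P18 to 24 months. With no filter on low values the median was -0.14 from P18 to P75 and -0.16 from P18 to 24 months. Quantile normalization gave -0.38 from P18 to 24 months. Removal of the GC trend gave -0.22 from P18 to P75 and -0.36 from P18 to 24 months, and removal of the length trend -0.21 from P18 to P75 and 0.092 from P75 to 6 months. The cause of these shifts was not tested. With 1 library left out, the median from P75 to 6 months ran from 0.14 to 0.19, lowest without P75 replicate 3. From 6 to 24 months, 5 to 8 members were then higher and 18 to 24 lower. With the replicate block, 8 members were higher and 34 lower in the first step, 32 and 19 in the step to 6 months, 8 and 28 in the last, and 14 and 40 over the whole span; no count moved by over 1.5 times. The pairing rests on the correlations alone, and only for P75 and 6 months. With 3 libraries per age, changes near the SE of about 0.1 on the log2 scale could not be called, and members with a mean below 10 could not be tested.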
